A study of Mus musculus with 12 samples.

Results

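The 10 genes described here encode the dual oxidases, their maturation factors, subunits of the NOX1 and NOX4 complexes and lactoperoxidase: *Duox1*, *Duox2*, *Duoxa1*, *Duoxa2*, *Nox1*, *Nox4*, *Noxo1*, *Noxa1*, *Cyba* and *Lpo*. They were taken by symbol from the 55450 genes of the table, and 7 of the 10 passed the filter on low counts, as did 20612 genes in all. Dual oxidases and NADPH oxidases are membrane enzymes that pass electrons from NADPH to oxygen and so make superoxide or hydrogen peroxide. DUOX1 and DUOX2 release hydrogen peroxide at the surface of airway and other epithelia, each with a maturation factor (DUOXA1 or DUOXA2) that brings it to the membrane, and lactoperoxidase (LPO) uses that peroxide to oxidize thiocyanate in airway fluid. NOX1 works with the organizer NOXO1, the activator NOXA1 and the shared membrane partner p22phox, which *Cyba* encodes, whereas NOX4 works with p22phox alone.

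The libraries came from type II alveolar epithelial (AT2) cells of AhRfl/fl mice (labelled WT), which carry floxed alleles of the aryl hydrocarbon receptor gene, and of Sftpc-Cre;AhRfl/fl mice (labelled AhR), in which Cre is driven by *Sftpc*, a gene of AT2 cells. The mice were of the C57BL/6 background and 6 to 8 weeks old. Cells of each genotype stayed for 24 h either in PBS or in an extract of cockroach (CRE, 50 µg/ml), and each of the 4 groups has 3 libraries. Both genotypes carry the floxed alleles, no group has Cre without them, and the labels do not say whether libraries of a group came from separate mice, so p-values measure the spread between these libraries. The comparisons ask how the genes differ with CRE in each genotype and on average, how they differ between genotypes, and whether the response to CRE differs between genotypes.

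Total counts ranged from 68878065 to 80935797 per library. At that depth a count of 0 allows up to 3 counts, or 0.0365 to 0.0446 CPM (counts scaled to a common library size), for counting error only. Low counts were not spread evenly: the value 4 occurred 15138 times, against 4286 times for 3 and 2625 times for 5. Of the counts from 1 to 20, 40.4% were multiples of 4, against 25% of those from 1000 to 5000, and the cause was not tested.

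*Ahr*, the targeted gene, had 44.0 ± 1.10 CPM in WT and 45.2 ± 4.73 CPM in AhR cells with PBS, and 52.3 ± 3.43 and 46.2 ± 7.42 CPM with CRE (mean ± SD, n = 3). The total over the gene does not show whether an exon was removed, so it does not check the genotype labels. The AT2 marker *Sftpc* was abundant in every library, with 2772 to 5465 FPKM (fragments scaled by gene length and library depth, a level per length). *Scgb1a1*, the main product of club cells, was higher, with 7342 to 15747 FPKM, whereas the other listed club cell markers were low, *Scgb3a2* with 2.13 to 3.77 FPKM and *Cyp2f2* with 4.69 to 8.75 FPKM. Of the 5 ciliated cell markers, *Foxj1* had 14.4 to 39.9 FPKM, *Tppp3* 18.9 to 45.0 FPKM and *Dnah5* 0.405 to 1.52 FPKM. Which cells these transcripts came from was not tested, and in bulk samples fewer cells of a type and less RNA per cell cannot be told apart.

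The libraries numbered 1 stood apart by their leukocyte genes, although the isolation had removed cells that bind antibodies to CD45 or CD16/32 with magnetic beads and those that stick to IgG on dishes. The 5 leukocyte markers, led by *Laptm5* and with none at 0, summed in libraries 1 to 3 to 298, 51.4 and 15.5 CPM in WT cells with PBS and to 251, 46.6 and 12.2 CPM with CRE. In AhR cells the sums were 223, 48.4 and 70.7 CPM with PBS and 203, 43.4 and 63.3 CPM with CRE. In each group the library numbered 1 was highest. Values from libraries 2 and 3 alone, an alternative chosen after seeing the data, stand below as values without the libraries numbered 1.

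*Cyba*, the p22phox gene, lay far above the other members per length, with 50.2 to 83.9 FPKM over the 12 libraries. *Noxo1* came next by its mean, 0.616 FPKM, with 0.255 to 1.18 FPKM. Its range did not meet that of *Cyba*, and its lower end overlapped the ranges of *Duox2*, *Noxa1* and *Duoxa2*. The ranges of *Duox2* (0.00947 to 0.367 FPKM), *Noxa1* (at most 0.258 FPKM), *Duoxa2* (at most 0.255 FPKM), *Nox4* (0.0232 to 0.149 FPKM) and *Duox1* (0.0111 to 0.107 FPKM) overlapped each other. *Duoxa1*, the maturation factor of DUOX1, had 0 to 10 counts and none in 6 libraries. *Lpo* had 0 to 17 counts and none in 7, and *Nox1*, the catalytic subunit that NOXO1 and NOXA1 serve, had 0 to 8 counts and none in 8. These 3 genes did not pass the filter and were not tested. Falls or small rises in them could not be seen at this depth, and no library held more than 17 counts of any of them.

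*Duox2* (ENSMUSG00000068452), a dual oxidase, was higher with CRE in both genotypes. It had 29, 8 and 6 counts in WT libraries 1 to 3 with PBS and 219, 70 and 158 with CRE. In AhR cells it had 12, 12 and 21 counts with PBS and 65, 83 and 176 with CRE. Every library with CRE lay above every library with PBS of its genotype. The level was 0.194 ± 0.168 CPM with PBS and 1.93 ± 0.909 CPM with CRE in WT cells, and 0.194 ± 0.0784 and 1.42 ± 0.782 CPM in AhR cells (mean ± SD, n = 3). With both genotypes averaged, *Duox2* rose with CRE by 3.08 on the log2 scale (SE 0.48, adjusted p = 0.0125), in the quasi-likelihood test of edgeR over all genes, and was higher in 6 of 6 pairs of libraries with the same number. Within a genotype its log2 difference was 3.30 in WT (SE 0.69, edgeR adjusted p = 0.118) and 2.86 in AhR cells (SE 0.68, edgeR adjusted p = 0.204), and neither passed the threshold of 0.05. With libraries of the same number taken as pairs within a genotype, the edgeR adjusted p was 0.0129 in WT and 0.0245 in AhR cells, in a fit that called 3.63% and 2.13% of all genes, and DESeq2 without pairs gave 3.47e-04 and 0.00372. Without WT PBS library 1, which had the highest count among the PBS libraries, the log2 difference in WT cells was 4.28, which edgeR did not call either. Without all libraries numbered 1, *Duox2* rose by 3.47 on average (adjusted p = 0.032, edgeR), and its difference was 3.95 in WT (edgeR adjusted p = 0.150) and 2.99 in AhR cells (edgeR adjusted p = 0.262).

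*Noxo1* (ENSMUSG00000019320), the organizer of the NOX1 complex, was also higher with CRE. It had 76, 60 and 86 counts in WT libraries 1 to 3 with PBS and 229, 305 and 199 with CRE. In AhR cells the counts were 131, 73 and 84 with PBS and 236, 224 and 216 with CRE. In both genotypes every CRE library lay above every PBS library. The level was 1.00 ± 0.108 CPM with PBS and 3.20 ± 0.772 CPM with CRE in WT cells, and 1.23 ± 0.395 and 2.96 ± 0.118 CPM in AhR cells (mean ± SD, n = 3). Averaged over genotypes, *Noxo1* rose by 1.47 on the log2 scale (SE 0.19, adjusted p = 0.00423, edgeR), in 6 of 6 pairs, and without the libraries numbered 1 by 1.64 (adjusted p = 0.032, edgeR). In WT cells it rose by 1.67 (SE 0.27, adjusted p = 0.0385, edgeR). That call was lost without any one of 10 of the 12 libraries (all but AhR PBS libraries 1 and 2), where the edgeR adjusted p lay between 0.0662 and 0.191, with no filter on low counts (0.0681), with only the WT libraries in the fit (0.112) and without the libraries numbered 1 (0.164). In AhR cells the difference was 1.27 (SE 0.27, edgeR adjusted p = 0.123), and DESeq2 gave an adjusted p of 0.00188. With pairs within a genotype edgeR called *Noxo1* in WT (adjusted p = 0.0256) and did not in AhR cells (unadjusted p = 0.00161, adjusted p = 0.0618). Without the libraries numbered 1 the AhR difference was 1.53 (edgeR adjusted p = 0.244). *Noxo1* (chr17:24696234-24700529, GRCm38) shares 2581 bases with *Tbl3* on the other strand, and whether the counting used strand is not stated. *Tbl3* had 3729 to 4835 counts, and its average log2 difference with CRE was 0.09 (SE 0.07, edgeR adjusted p = 0.759).

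*Duoxa2*, the maturation factor of DUOX2, had 16, 19 and 6 counts in WT libraries with PBS and 17, 15 and 21 with CRE. In AhR cells it had 0, 8 and 0 counts with PBS and 31, 10 and 36 with CRE. The CRE libraries all lay above the PBS libraries in AhR cells, whereas in WT cells they overlapped. The log2 difference with CRE was 0.28 in WT (SE 1.05, edgeR adjusted p = 0.990), 3.28 in AhR cells (SE 1.18, edgeR adjusted p = 0.633) and 1.78 on average (SE 0.78, edgeR adjusted p = 0.429). The AhR value exceeded the WT value by 3.0 (95% interval -0.43 to 6.42, unadjusted p = 0.080, adjusted p = 1 by edgeR), which did not pass the test. The WT difference was -0.10 without WT PBS library 3. Without the libraries numbered 1 the values were 0.43 in WT and 2.57 in AhR cells, neither past the threshold. Without AhR PBS library 2 the AhR libraries with PBS are both at 0, and the fitted value, 7.66 (edgeR adjusted p = 0.114), depends on the prior count and is no bound. With pairs within a genotype edgeR gave 0.40 in WT (SE 1.26, unadjusted p = 0.76). In AhR cells it gave 3.96 (SE 1.65, unadjusted p = 0.0485, adjusted p = 0.35), which was not called.

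The other 4 tested members did not pass the edgeR threshold with CRE. *Cyba*, with 4160 to 7126 counts, was higher with CRE in 6 of 6 pairs, but its groups overlapped. Without pairs its log2 difference was 0.22 (SE 0.15) in WT, 0.32 (SE 0.15) in AhR cells and 0.27 (SE 0.11, unadjusted p = 0.0303, adjusted p = 0.372 by edgeR) on average, and without the libraries numbered 1 the average was 0.35 (edgeR adjusted p = 0.309). With pairs within a genotype edgeR did not call it either. The unadjusted p was then 0.102 in WT, 0.025 in AhR cells (adjusted p = 0.258) and 0.0125 on average (adjusted p = 0.113). *Nox4*, an oxidase that is active without the cytosolic subunits, had 16 to 112 counts, and log2 differences of 0.09 (SE 0.58), 0.38 (SE 0.58) and 0.23 (SE 0.41) in WT, in AhR cells and on average. Its direction turned on single libraries, with -0.52 in WT and -0.07 on average without WT CRE library 1, and -0.34 in WT without WT PBS library 2. *Noxa1*, the activator of NOX1, had 0 to 36 counts and log2 differences of 0.79 (SE 1.25), 0.92 (SE 1.27) and 0.85 (SE 0.89). In WT cells its 29, 25 and 26 counts with CRE lay above the 16, 8 and 21 counts with PBS, and in AhR cells its difference was -0.34 without the libraries numbered 1. *Duox1*, the other dual oxidase, had 5 to 47 counts and log2 differences of -0.46 (SE 0.82), -0.67 (SE 0.83) and -0.57 (SE 0.58). AhR PBS library 3 held the 47 counts, and without it the *Duox1* difference was 0.56 in AhR cells and 0.05 on average.

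**Figure D1:**
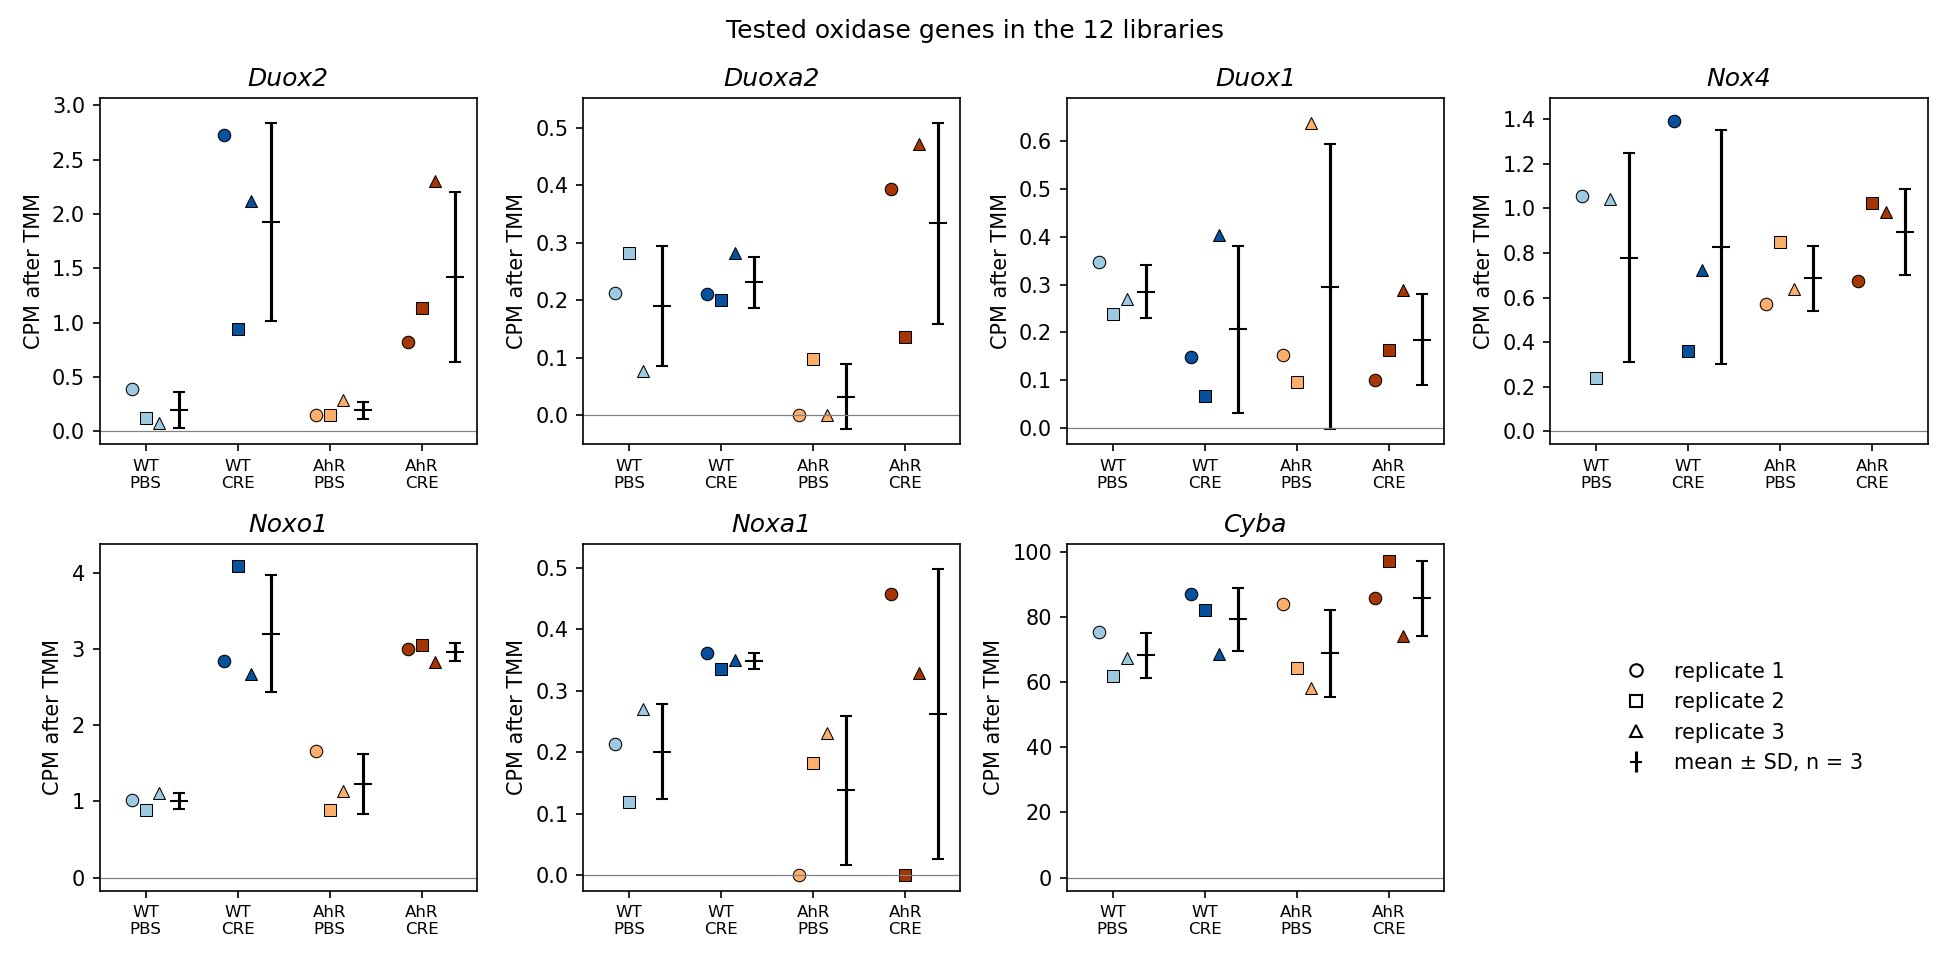
CPM after TMM normalization (y axis, linear) of the 7 tested genes in the 4 groups (x axis), with 1 symbol per library by replicate number and the mean ± SD of 3 libraries beside it. *Duox2* and *Noxo1* with CRE lie above PBS in both genotypes, while *Duox1*, *Nox4* and *Cyba* overlap.

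Read against all genes, edgeR called 1 of the 7 tested members with CRE in WT cells (*Noxo1*), where it called 0.233% of all genes, 0 of 7 in AhR cells (0.262%) and 2 of 7 on average (*Duox2* and *Noxo1*, 1.1%). At an unadjusted p below 0.05 edgeR had 2 members in WT (9.36% of all genes), 3 in AhR cells (6.48%) and 4 on average (11.1%). *Duox2* and *Noxo1* were the 2 members called by DESeq2 in WT (1.98% of all genes), in AhR cells (1.23%) and on average (3.59%). The rule of the study takes limma-trend results with an unadjusted p below 0.05 and a log2 difference of more than 0.5 in size. *Duox2* and *Noxo1* met it in WT (4.11% of all genes), and *Duox2*, *Duoxa2* and *Noxo1* met it in AhR cells (3.38%) and on average (4.02%). Libraries with CRE and with PBS were free of overlap for *Duox2*, *Noxo1* and *Noxa1* in WT (16.5% of all genes) and for *Duox2*, *Duoxa2* and *Noxo1* in AhR cells (11.8%). The median log2 difference of the 7 members was 0.28 in WT, 0.92 in AhR cells and 0.85 on average, against -0.0012, -0.0027 and -0.0021 over all genes tested. A member that passed the filter only through a group where it is high had to differ. The study names *Noxo1* and *Duox2* among its genes higher with CRE in AhRfl/fl cells, from these same data. The members were chosen with earlier results of these data known, so these shares and medians are a description and no test of enrichment.

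Between genotypes no member passed the test. EdgeR called 0 of the 7 members with PBS (0.15% of all genes called), with CRE (0.17%) and on average (0.631%), where 8.37%, 5.95% and 9.93% of all genes but no member had an unadjusted p below 0.05. DESeq2 called 0 members as well, against 1.18%, 0.844% and 2.53% of all genes. Within a treatment it gave no adjusted p for *Duox1*, *Duoxa2* and *Noxa1*, so its result there does not cover them. WT and AhR libraries overlapped for every tested member with PBS (14% of all genes did not overlap) and with CRE (11%). By the rule of the study *Duoxa2* was lower in AhR cells with PBS (4.1% of all genes met the rule), with a limma log2 difference of -2.16 against -2.47 (SE 1.16, unadjusted p = 0.0578) in edgeR. No member met the rule with CRE (3.42%) or on average (4.11%). Over the means of pairs limma called 0 members on average, with 0 at an unadjusted p below 0.05.

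The response to CRE was compared between genotypes for each member. EdgeR called 0 members and 0% of all genes, no member had an unadjusted p below 0.05 (3.7% of all genes), DESeq2 called 0 (0.112%), and *Duoxa2* met the rule of the study (2.3% of all genes). The AhR response minus the WT response was -0.43 for *Duox2* (95% interval -2.44 to 1.57) and -0.40 for *Noxo1* (95% interval -1.23 to 0.43) on the log2 scale. With 1 library left out the *Duox2* value ran from -1.42 (without WT PBS library 1) to -0.0532 (without WT PBS library 3) and that of *Noxo1* from -0.59 to -0.13 (without AhR PBS library 2 and library 1), and without the libraries numbered 1 they were -0.97 (SE 0.88) and -0.23 (SE 0.44). Both intervals hold values on either side of 0. DESeq2 gave no adjusted p for *Duox1*, *Duoxa2* and *Noxa1* in the CRE comparisons, in the genotype comparisons within a treatment and in that of the responses.

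The dual oxidase genes lie together on chromosome 2 (GRCm38). *Duox2* spans chr2:122279247-122298449 on the minus strand and *Duoxa2* chr2:122298900-122302885 on the plus strand, and their starts face each other across 450 bases. *Duoxa1* (chr2:122302191-122313730, minus) and *Duox1* (chr2:122315672-122347972, plus) form the second such pair, 1941 bases apart. The ends of *Duoxa1* and *Duoxa2* overlap by 695 bases on opposite strands, so that the assignment of reads there is uncertain.

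**Figure D2:**
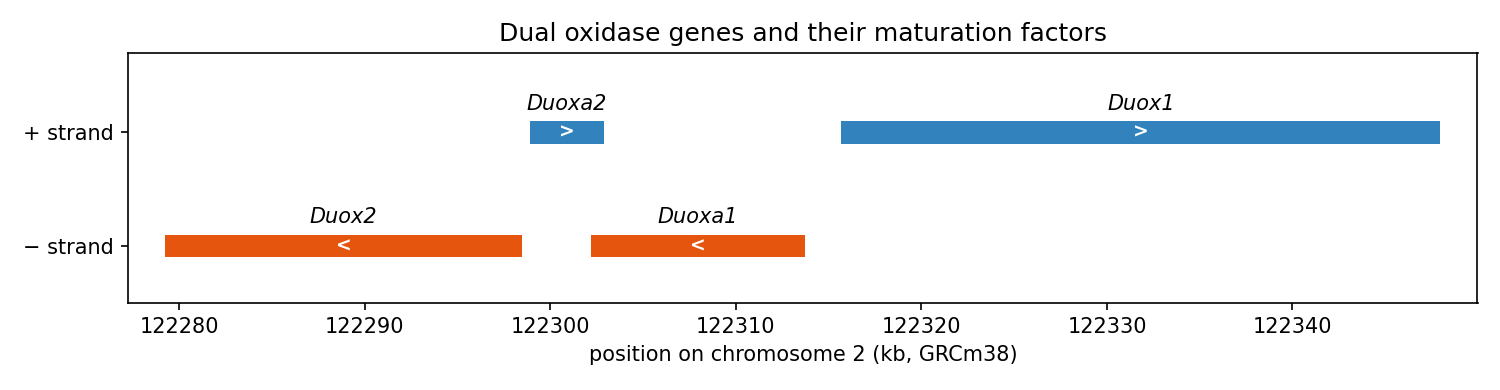
Positions of *Duox2*, *Duoxa1*, *Duoxa2* and *Duox1* on chromosome 2 (x axis, kb of GRCm38), drawn to scale, with genes of the plus strand above and those of the minus strand below and the sign in each bar giving its direction. The 450 bases between *Duox2* and *Duoxa2* lie between the starts of both.

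Of the genes other than the members that start within 500 kb of *Duox2*, 21 were tested. With CRE edgeR called 1 of them on average, *Sqor* (1.1% of all genes called), and 0 in WT (0.233%) and in AhR cells (0.262%). In each of these comparisons 2 had an unadjusted p below 0.05, against 11.1%, 9.36% and 6.48% of all genes. DESeq2 called 0 in WT cells (1.98% of all genes), *Sqor* in AhR cells (1.23%), and *Sord* and *Sqor* on average (3.59%). In the genotype comparisons edgeR and DESeq2 called 0 of the 21. At an unadjusted p below 0.05 edgeR had 0 with PBS (8.37% of all genes), 0 with CRE (5.95%) and 3 on average (9.93%). On average *Bloc1s6os* met the rule of the study (4.11% of all genes).

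The bases before the start of *Duoxa2* are shown because *Duox2*, across the same gap, rose with CRE. They are from RefSeq (GRCm38.p6), chr2:122298650-122298899, plus strand, and lie between the annotated starts of *Duox2* and *Duoxa2*. The capitals mark, in order, the AP-1 motif TGANTCA, the xenobiotic response core GCGTG on the other strand and the motif TATAAA.
Duoxa2: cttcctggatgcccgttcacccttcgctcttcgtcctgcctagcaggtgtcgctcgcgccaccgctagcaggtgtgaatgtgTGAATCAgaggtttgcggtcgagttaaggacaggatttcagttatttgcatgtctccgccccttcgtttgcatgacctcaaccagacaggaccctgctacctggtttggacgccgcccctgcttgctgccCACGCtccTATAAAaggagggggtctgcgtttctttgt
All 10 members had a RefSeq window of 300 bases around the start. The RefSeq start was not the start of the position used here for 6 of the 10. That of *Duox2* lies 222 bases inside the gene, so its window ends at base 122298477 and does not reach the AP-1 motif shown, which starts at base 122298732. Those of *Nox1*, *Lpo* and *Nox4* lie 110102, 2175 and 553 bases inside. With both strands searched, GCGTG was in the windows of 7 members (*Duox1*, *Duoxa1*, *Duoxa2*, *Nox4*, *Noxo1*, *Noxa1* and *Lpo*) and in 32.4% of 32851 windows. The matches of *Noxo1* lie within chr17:24696075-24696133. That is on the *Gfer* side of the 77 bases between the exons of this neighbour gene and the start of *Noxo1*. TGANTCA (7.81% of windows) and TATAAA (13.6%) were in the window of *Duoxa2* alone among the members. TTCNNNGAA, a STAT motif, was in that of *Nox4* (8.30%), and the kappaB motif was in those of *Nox1* and *Noxa1* (8.46%). A match is a description of letters and does not show a bound factor.

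Over the 12 libraries, the genes whose log2 CPM was most like that of *Duox2* were *Nfkbiz* (Pearson r = 0.973), *Cxcl1* (0.962) and *Cxcl2* (0.956). For *Noxo1* they were *Zc3h12a* (0.972), *Fam13a* (0.962) and *U90926* (0.953), and *Duox2* and *Noxo1* had r = 0.829. These values describe libraries that share the treatment, and each gene named was picked as among the 3 highest of 20612 tested. *Duox2* and its maturation factor *Duoxa2* had r = 0.552. For *Cyba* the nearest were *Gm43181* (0.910), *Foxp3* (0.907) and *Arpc1b* (0.881), and for *Nox4* *Sox8* (0.916), *Sepsecs* (0.895) and *Rbfox1* (0.887). For *Duox1* they were *Epop* (0.915), *Gadd45a* (0.858) and *Crym* (0.853). They were *Gm44751* (0.903), *Rlf* (0.898) and *Gm6155* (0.869) for *Duoxa2*, and *Chpf2* (0.945), *Bak1* (0.914) and *Gm11878* (0.874) for *Noxa1*. The values for *Duox1*, *Nox4*, *Duoxa2* and *Noxa1* rest on few counts, at most 112 of the member in any library, as do those of *Gm43181* (0 to 38 counts) and *Foxp3* (4 to 118 counts) for *Cyba*. *Duox2* itself had 6 to 29 counts in libraries with PBS.

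The phagocyte oxidase shares *Cyba* with the NOX enzymes of epithelia. Of 8 genes listed for it and its partners 7 were tested, all but *Nox3*, a separate NADPH oxidase with 0 counts in all 12 libraries, and *Cybb* was higher with CRE when libraries of the same number were taken as pairs. *Cybb*, its catalytic subunit, had 3767, 416 and 193 counts in WT libraries 1 to 3 with PBS and 7383, 1280 and 397 with CRE. In AhR cells it had 2562, 585 and 394 counts with PBS and 5965, 1038 and 1053 with CRE. The library numbered 1 was highest in each group, and *Cybb* was higher with CRE in 6 of 6 pairs, while the summed leukocyte markers were higher in 0 of 6. With pairs within a genotype edgeR called *Cybb* and no other of the 7, at 1.14 in WT (SE 0.13, adjusted p = 0.00794), 1.19 in AhR cells (SE 0.13, adjusted p = 0.00678) and 1.17 on average (SE 0.09, adjusted p = 8.25e-04) on the log2 scale. Lists were fitted with pairs only after the data had been seen. Without pairs the average over all 12 libraries was 1.08 (SE 0.91, edgeR adjusted p = 0.769). That fit called 0 of the 7 in each of the 7 comparisons, as did DESeq2, with 0 at an unadjusted p below 0.05 and 0 by the rule of the study. Without the libraries numbered 1, and without pairs, the *Cybb* average was 1.27 (SE 0.42, edgeR adjusted p = 0.352). With single libraries left out, the unpaired difference was -0.80 in WT without WT CRE library 1 and -0.0988 in AhR cells without AhR CRE library 1, and without their PBS counterparts 3.14 and 2.47. The part of leukocytes in the levels of *Cyba* and *Cybb* was not tested.

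**Figure D3:**
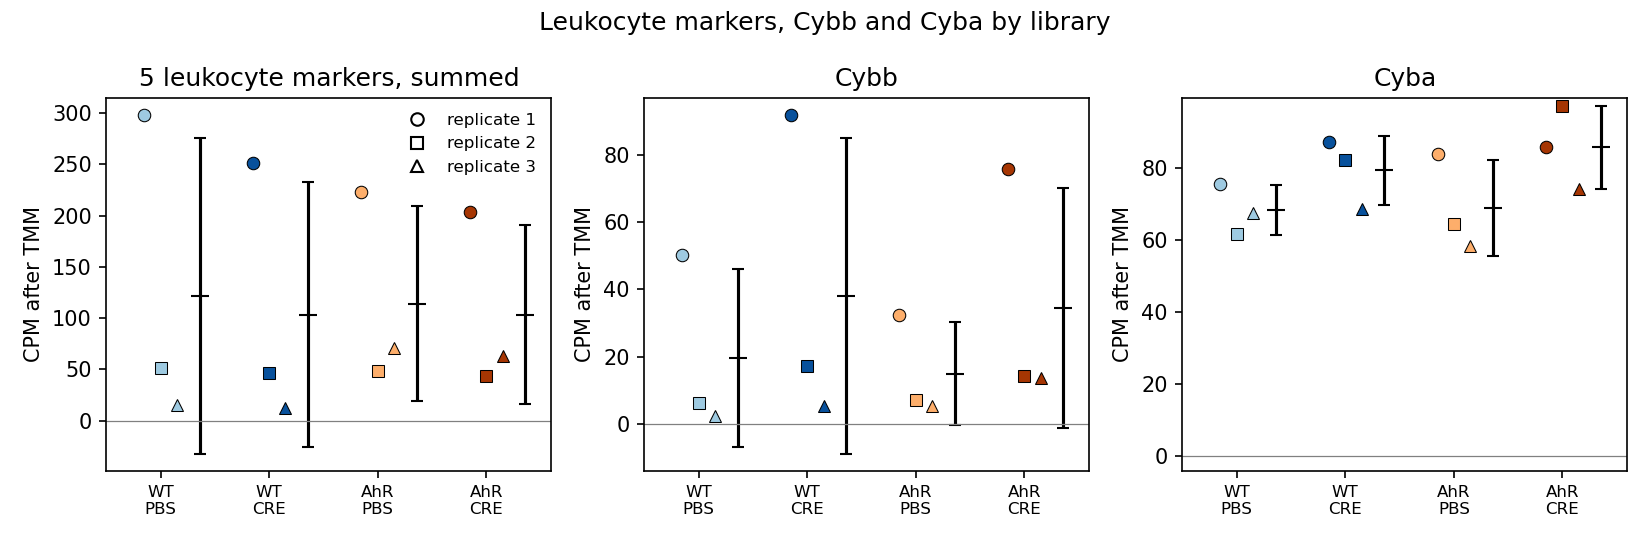
CPM after TMM (y axes, linear) of 5 leukocyte markers summed, of *Cybb* and of *Cyba* in the 4 groups (x axis), with symbols for the replicate number and the mean ± SD of 3 libraries. Replicate 1 is highest in each group for the markers and *Cybb*, and *Cyba* keeps to 58.4 to 97.4 CPM.

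Genes that remove hydrogen peroxide and superoxide were tested as a list of 14, and edgeR without pairs called 2 higher and 0 lower with CRE on average (1.1% of all genes called). *Prdx6*, a peroxiredoxin abundant in lung, had 654.9 to 758.7 CPM in the 6 libraries with PBS and 802.5 to 1013 CPM in the 6 with CRE. It rose by 0.46 on the log2 scale (SE 0.06, adjusted p = 0.00689, edgeR), and by 0.51 without the libraries numbered 1 (adjusted p = 0.012, edgeR). *Cat*, which encodes catalase, rose by 0.37 (SE 0.07, adjusted p = 0.024, edgeR). The *Cat* call was lost without any one of 7 libraries (WT PBS 1 and 3, WT CRE 2 and 3, AhR PBS 1 and 2, and AhR CRE 3, with an adjusted p of 0.0526 to 0.0799) and without the libraries numbered 1 (0.054). At an unadjusted p below 0.05 edgeR had 5 higher and 3 lower on average (11.1% of all genes). DESeq2 called *Cat*, *Prdx1* and *Prdx6* there (3.59% of all genes), all higher, and *Gpx2* alone met the rule of the study (4.02%), also higher. Within a genotype edgeR called 0 of the 14 with CRE. At an unadjusted p below 0.05 it had 3 higher (*Cat*, *Prdx1* and *Prdx6*) and 4 lower (*Prdx2*, *Prdx4*, *Gpx1* and *Gpx4*) in WT cells (9.36% of all genes), and 5 higher and 0 lower in AhR cells (6.48%). DESeq2 called *Cat* and *Prdx6* higher in both genotypes and *Gpx1* lower in WT cells (1.98% of all genes in WT, 1.23% in AhR cells). By the rule of the study *Gpx1* was lower in WT (4.11% of all genes) and *Gpx2* higher in AhR cells (3.38%). With pairs within a genotype edgeR called 3 higher and 4 lower in WT cells (3.63% of all genes called), 4 higher and 0 lower in AhR cells (2.13%), and 4 higher and 2 lower on average (6.59%). Between genotypes edgeR called 0 of the 14. At an unadjusted p below 0.05 it had 4 with PBS (8.37% of all genes), 3 with CRE (5.95%) and 2 on average (9.93%). On average DESeq2 called 2 (2.53% of all genes), *Sod1* and *Cat*, both lower in AhR cells. Over the means of pairs limma called neither, with -0.19 for *Sod1* (adjusted p = 0.867) and -0.32 for *Cat* (adjusted p = 0.637). For the difference of the responses edgeR and DESeq2 called 0. At an unadjusted p below 0.05 edgeR had 2 (3.7% of all genes), *Prdx2* and *Gpx1*, of which *Gpx1* met the rule of the study (2.3%). With pairs edgeR called 0 there too, with 5 at an unadjusted p below 0.05, for which no share of all genes was computed.

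Among 5 listed genes of anion and proton transport, edgeR without pairs called *Slc26a4* alone with CRE. It called 0.233% of all genes in WT, 0.262% in AhR cells and 1.1% on average. The study names *Slc26a4* among its genes higher with CRE in AhRfl/fl cells, from these same data. *Slc26a4* encodes pendrin, an exchanger of chloride, bicarbonate and thiocyanate. It had 67, 64 and 71 counts in WT libraries 1 to 3 with PBS and 384, 568 and 595 with CRE. In AhR cells it had 86, 151 and 170 counts with PBS and 1025, 1587 and 2243 with CRE. Every CRE library lay above every PBS library (groups did not overlap for 16.5% of all genes in WT and 11.8% in AhR cells). Every AhR library lay above every WT library of the same treatment (14% of all genes did not overlap with PBS and 11% with CRE). *Slc26a4* rose with CRE by 2.88 in WT (SE 0.36, adjusted p = 0.00902, edgeR), 3.61 in AhR cells (SE 0.37, adjusted p = 0.00393, edgeR) and 3.25 on average (SE 0.26, adjusted p = 1.9e-04, edgeR) on the log2 scale. Without the libraries numbered 1 these rises were 3.06, 3.62 and 3.34, each called by edgeR. The WT call was lost without WT PBS library 1, 2 or 3 (adjusted p = 0.0519 to 0.0708, edgeR), and the AhR call with only the AhR libraries in the fit (0.0582). Between genotypes edgeR called *Slc26a4* neither with PBS nor with CRE. In both it was higher in AhR cells at an unadjusted edgeR p below 0.05 (8.37% of all genes with PBS, 5.95% with CRE). The rule of the study took it as higher in both too (4.1% and 3.42%). DESeq2 called it higher with CRE (0.844% of all genes) and on average (2.53%), and not with PBS. Averaged over treatments, with all 12 libraries taken as independent, *Slc26a4* was higher in AhR than in WT cells by 1.29 (SE 0.24, adjusted p = 0.0438, edgeR). EdgeR called 0.631% of all genes there. With the mean of each pair in place of its 2 libraries (3 pairs against 3, limma-trend, chosen after seeing the data) the difference was 1.22 (SE 0.30, unadjusted p = 0.00548, adjusted p = 0.559) and was not called, in a fit that called 0.0873% of all genes. The call over independent libraries was also lost without any one of 10 libraries (all but AhR PBS library 1 and AhR CRE library 1, with an adjusted p of 0.087 to 0.126), with limma (0.0555) and with no filter on low counts (0.0578), and kept without the libraries numbered 1 (1.43, adjusted p = 0.0169). The AhR response of *Slc26a4* to CRE exceeded the WT response by 0.73 (95% interval -0.32 to 1.78, adjusted p = 1 by edgeR), which did not pass the test. With pairs within a genotype the excess was 0.75 (SE 0.21, unadjusted p = 0.00957, adjusted p = 0.494 by edgeR), which did not pass either.

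*Ano1*, a calcium-activated chloride channel gene of the same list, was lower with CRE in 6 of 6 pairs. It had 273, 339 and 373 CPM in WT libraries 1 to 3 with PBS and 192, 269 and 293 CPM with CRE. In AhR cells it had 334, 380 and 345 CPM with PBS and 255, 276 and 252 CPM with CRE. The groups overlapped in WT cells and did not in AhR cells, where 11.8% of all genes did not overlap. Without pairs its average log2 difference was -0.41 (SE 0.11, edgeR adjusted p = 0.125), which edgeR did not call, while DESeq2 called it lower on average (adjusted p = 0.00834) and in neither genotype alone. With pairs within a genotype edgeR called it lower, at -0.40 in WT (SE 0.05, adjusted p = 0.00841), -0.43 in AhR cells (SE 0.05, adjusted p = 0.00651) and -0.42 on average (SE 0.03, adjusted p = 8.25e-04). The paired fit called *Slc26a4* and *Ano1* in each of these comparisons and no other gene of the 5. It called 3.63% of all genes in WT, 2.13% in AhR cells and 6.59% on average.

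Of 4 other haem peroxidases 3 were tested, and edgeR called 0 in each of the 7 comparisons. With CRE and for the difference of the responses none had an unadjusted p under 0.05 without pairs, nor was any called by DESeq2. With pairs within a genotype edgeR called 0 as well, but *Pxdn*, higher with CRE in 5 of 6 pairs, had log2 differences of 0.40 in WT (unadjusted p = 0.0108, adjusted p = 0.124) and 0.27 on average (unadjusted p = 0.0135, adjusted p = 0.118). *Pxdn*, which encodes peroxidasin, had 1796, 1048 and 1575 counts in WT libraries 1 to 3 with PBS and 2169, 1673 and 2145 with CRE. In AhR cells it had 803, 1141 and 674 counts with PBS and 917, 1295 and 640 with CRE. The level was 15.6 to 28.8 CPM in WT and 8.39 to 17.7 CPM in AhR libraries. Within a treatment the genotypes did not overlap, which held for 14% of all genes with PBS and 11% with CRE. The averaged log2 difference between genotypes was -0.95 (SE 0.19, edgeR adjusted p = 0.0619), and DESeq2 gave an adjusted p of 1.15e-04. EdgeR called it without AhR CRE library 2 (-1.10, adjusted p = 0.0264), with a filter of 1 CPM in 3 libraries and with counts divided by 4, and limma called it too, whereas without the libraries numbered 1 it was -0.81 (edgeR adjusted p = 0.441). These fits take PBS and CRE libraries of 1 number as independent, and over the means of pairs the *Pxdn* difference was -0.98 (SE 0.23, limma unadjusted p = 0.00417, adjusted p = 0.505). At an unadjusted p below 0.05 edgeR had *Pxdn* with PBS (8.37% of all genes) and with CRE (5.95%), and *Mpo* and *Pxdn* on average (9.93%). The same genes met the rule of the study (4.1%, 3.42% and 4.11% of all genes). DESeq2 called *Pxdn* with CRE (0.844% of all genes) and on average (2.53%).

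Markers of other cell types were compared between the genotypes on average, where *Slc26a4* was called without pairs, and edgeR called 0 of them, as did limma over the means of pairs. The 5 ciliated cell markers, led by *Foxj1* and with none at 0, summed in libraries 1 to 3 to 121, 125 and 165 CPM in WT cells with PBS and to 109, 119 and 162 CPM with CRE. In AhR cells the sums were 263, 159 and 167 CPM with PBS and 264, 167 and 164 CPM with CRE. The genotypes overlapped in these ciliated sums with PBS and not with CRE, where 11% of all single genes did not overlap. All 5 had a log2 difference above 0 (AhR against WT), and edgeR called 0 with 4 at an unadjusted p below 0.05 (9.93% of all genes). DESeq2 called *Foxj1* and *Dnah5* (2.53% of all genes), which also met the rule of the study (4.11%). These fits take PBS and CRE libraries of 1 number as independent. Over the means of pairs limma gave 0.64 for *Foxj1* (adjusted p = 0.872) and 0.69 for *Dnah5* (adjusted p = 0.867). EdgeR called 0 genes of the other marker lists between genotypes on average. At an unadjusted p below 0.05 (9.93% of all genes) *Krt5*, *Des*, *S100a8* and *S100a9* were lower in AhR cells and *Rtkn2* higher. All 5 met the rule of the study too (4.11% of all genes), which also took *Siglecf* as higher. DESeq2 called *Krt5* alone on these other lists (2.53% of all genes). The 6 neutrophil markers, led by *S100a9* and with 1 at 0 in each of 4 libraries, summed to 32.2, 32.8 and 4.88 CPM in WT libraries 1 to 3 with PBS and to 18.6, 29.1 and 8.47 CPM with CRE. In AhR cells they summed to 6.74, 11.8 and 2.48 CPM with PBS and to 6.34, 10.8 and 1.69 CPM with CRE. In the neutrophil sums the genotypes overlapped with PBS and with CRE. The part of these markers in the genotype differences of *Slc26a4* and *Pxdn* was not tested.

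With CRE on average edgeR called 2 of 6 AT1 markers and 1 of 10 AT2 markers, against 1.1% of all genes. The AT1 markers *Ager* and *Rtkn2* fell by 0.83 and 1.28 on the log2 scale (adjusted p = 0.0472 and 0.0404, edgeR). The AT2 marker *Etv5* fell by 0.47 (adjusted p = 0.0185, edgeR). All 6 AT1 markers had a value below 0, with a median of -0.64, and DESeq2 called 4 (3.59% of all genes), *Ager*, *Aqp5*, *Hopx* and *Rtkn2*. The AT2 markers did not go one way, with 3 of 10 above 0 and a median of -0.08. Among them *Sftpd* had 0.29 (unadjusted p = 0.0241, edgeR) and *Lamp3* 0.30, *Lpcat1* was lower by the rule of the study, and DESeq2 called *Etv5* alone. The *Ager* call was lost without any one of 9 libraries (all but WT PBS 1, AhR PBS 1 and AhR CRE 2, with an adjusted p of 0.0771 to 0.137) and with no filter (0.0632), and kept without the libraries numbered 1 (-0.82, adjusted p = 0.0447). The *Rtkn2* call was lost without any one of 9 (all but WT PBS 1, WT CRE 3 and AhR PBS 1, 0.0518 to 0.114), with no filter (0.0547) and without the libraries numbered 1 (0.104). The *Etv5* call was lost without WT PBS 2 or 3, WT CRE 2 or AhR PBS 2 or 3 (0.0516 to 0.0618) and without the libraries numbered 1 (0.0629). EdgeR called 0 genes with CRE on average on the lists for club, goblet, ciliated and basal cells, fibroblasts, smooth muscle, endothelium, neutrophils, alveolar macrophages and leukocytes. Of these, *Krt5*, *Krt14*, *Des*, *Siglecf* and *Ear2* had an unadjusted p below 0.05 (11.1% of all genes). DESeq2 called *Siglecf* (3.59%), and *Krt5*, *Des*, *Siglecf* and *Ear2* met the rule of the study (4.02%). With pairs within a genotype, in a fit that called 6.59% of all genes on average, edgeR called 1 gene higher on these lists (*Krt5*) and *Scgb1a1*, *Col1a1*, *Col1a2*, *Col3a1*, *Des*, *Siglecf*, *Mrc1*, *Itgax*, *Ear2* and *Laptm5* lower. The same fit called 3 of 6 AT1 markers lower (*Ager*, *Aqp5* and *Rtkn2*), and 2 of 10 AT2 markers higher (*Sftpd* and *Lamp3*) and 4 lower (*Sftpc*, *Abca3*, *Lpcat1* and *Etv5*). *Sftpc* itself was higher with CRE in 3 of 6 pairs. In that fit it had -0.23 in WT (edgeR adjusted p = 0.00376) and 0.05 in AhR cells (edgeR adjusted p = 0.384). The difference of these responses was 0.28 (unadjusted p = 3.84e-05, adjusted p = 0.2745 by edgeR) and was not called. The part of these marker changes in the rise of *Duox2* and *Noxo1* was not tested.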

How the data were processed

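RNA-seq of 12 libraries was used. The authors made stranded mRNA libraries, aligned reads with STAR 2.7.2b to GRCm38 and quantified them with Salmon. Each deposited count is whole and not normalized. The annotation named is RefSeq, with Partek, while the identifiers of the table are those of Ensembl. How whole numbers were reached and the use of strand are not given in the sources used here. FPKM values were computed by the authors and served here for levels only, where 0.0001 stands for a count of 0. The 12 single tables held the same counts as the combined table.

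Symbols and positions were taken from GENCODE M21 for all 55450 genes. Counts were scaled by TMM, kept by filterByExpr with the groups given (minimum count 10) and tested with edgeR 4.0.16 under R 4.3.3, as 7 contrasts in 1 fit of 4 group means, by the quasi-likelihood test with Benjamini-Hochberg adjustment over all 20612 genes at 0.05. Floors for a count of 0 cover counting error only. Figures were drawn with matplotlib 3.10.9 under Python 3.11.15. Alternatives were DESeq2 1.42.0, limma-trend (limma 3.58.1, prior count 2), the study's rule, RLE factors, library size, 2 other filters, the compared libraries only, the replicate number as a block over all libraries or within genotype, and each library left out in turn. The members and lists were chosen with earlier results of these data known, and 4 alternatives were added after seeing the data (counts divided by 4, only libraries numbered 2 and 3, the lists with pairs within genotype, and limma-trend on the mean log2 CPM of each pair for the averaged genotype comparison).

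Named genes are the members, *Ahr*, the listed genes, the 3 genes most correlated with each tested member and neighbours within 500 kb that are called in a genotype comparison. *Tbl3*, *Sqor*, *Sord* and *Bloc1s6os* lie outside this rule and were chosen after their values were seen. *Gfer* also lies outside it and is named for its position only.

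Pairing was checked by the correlation of deviations from the group mean over 20612 genes. Libraries of the same number had 0.514, 0.222 and 0.429 between CRE and PBS in WT and 0.349, 0.319 and 0.209 in AhR cells, so numbers were taken to pair the CRE comparisons. Between genotypes they had 0.285, 0.0384 and 0.0598 with PBS and 0.284, -0.0136 and 0.0346 with CRE, and were taken to share only a number.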

Additional observations from a re-analysis of the deposited data

How the results depend on the processing

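Averaged over genotypes, *Duox2* and *Noxo1* were called with CRE under all 23 alternatives run, with an adjusted p of at most 0.0497 (without AhR PBS library 2) and 0.032 (without the libraries numbered 1). The study's rule called 3 members there against 2. In WT cells, where edgeR called 1 member, DESeq2, the study's rule and the replicate block within genotype called 2 each, and 0 were called with no filter on low counts, with only the libraries compared and with only libraries numbered 2 and 3. In AhR cells, where edgeR called 0, DESeq2 called 2, the study's rule 3 and the replicate block within genotype 1. The study's rule called 1 member between genotypes with PBS and 1 for the difference of the responses. Leaving out 1 library gave 0 to 1 called members in WT cells. The cause was not tested.

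Some log2 differences that edgeR did not call over all 12 libraries without pairs turned direction. With only libraries numbered 2 and 3, *Nox4* in WT cells had -0.24 and *Noxa1* in AhR cells -0.34. For the difference of the responses, *Duox1* had 0.37 with limma and with the study's rule, 0.50 with the replicate block and 0.41 with the block within genotype. *Noxa1* had -0.22 with limma and with the study's rule, -0.18 and -0.25 with these blocks, and -1.14 with only libraries numbered 2 and 3. Over the fits that leave out 1 library, *Duoxa2* ranged from -0.10 to 0.67 and *Nox4* from -0.52 to 0.44 in WT cells. *Duox1* ranged from -1.14 to 0.56 in AhR cells and from -1.03 to 0.0478 on average, and *Nox4* from -0.0703 to 0.41 on average. *Cybb* ranged from -0.80 to 3.14 in WT and from -0.0988 to 2.47 in AhR cells. For the difference of the responses the ranges were -0.68 to 1.02 for *Duox1*, -0.0642 to 0.90 for *Nox4*, -0.53 to 0.72 for *Noxa1* and -0.0075 to 0.26 for *Cyba*. Of the log2 values under other settings, 820 kept direction and side of the threshold, 68 lost the call, 20 gained it and 29 turned direction. The cause was not tested.

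Libraries of the same number were also taken as blocks within genotype. EdgeR then called 2 members in WT (3.63% of all genes called) and 1 in AhR cells (2.13%). Without a block it called 1 (0.233%) and 0 (0.262%). With 1 block over all 12 libraries it called 1 and 0 members.

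Over all genes, edgeR called 48 with CRE in WT cells, 54 in AhR cells and 226 on average. Under the other settings, which include the study's rule, these counts ran from 38 to 848, 13 to 696 and 166 to 1358. Leaving out 1 library gave 19 to 51, 23 to 62 and 125 to 219. The count fell by more than 1.5 times without WT PBS 1, 2 or 3 or WT CRE 2 or 3 in WT cells (28, 20, 19, 20 and 22), without AhR PBS 2 or AhR CRE 2 or 3 in AhR cells (23, 28 and 26), and on average without WT PBS 2 or 3, WT CRE 2 or 3, AhR PBS 2 or AhR CRE 3 (136, 125, 131, 139, 131 and 137). Between genotypes the counts were 31 with PBS, 35 with CRE and 130 on average, or 18 over the means of pairs. They fell likewise without WT PBS 1 or 3 or AhR PBS 1 with PBS (15, 18 and 19), without WT CRE 2 with CRE (21), and without WT PBS 2, WT CRE 2 or AhR PBS 1 on average (78, 82 and 84). Under the other settings the counts between genotypes ran from 15 to 846, 19 to 705 and 18 to 847. For the difference of the responses edgeR called 0, or 0 to 2 without 1 library, DESeq2 called 23 and the study's rule 475.

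*Duox1*, *Duoxa2* and *Noxa1* gave no value with a filter of 1 CPM in 3 libraries or with counts divided by 4, since they did not pass the filter. With 3 libraries a group and counts of 0 to 47, these members can show only large differences, and *Duoxa1*, *Nox1* and *Lpo* were not tested.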
